A study of Mus musculus with 9 samples.

Results

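The genes described here are 9 genes of myelin and of the oligodendrocyte, the cell that makes it in the brain: Mbp, Mobp, Mog, Mag, Cnp, Cldn11, Mal, Ugt8a and Sox10. All probe sets whose platform annotation gives 1 symbol, and that symbol is one of these, were taken, which gave 16 probe sets for 9 of the 8251 genes with such a probe set on the array. Affymetrix U74Av2 arrays measured total RNA from the forebrain of male C57BL mice, an inbred strain, labelled as 4 weeks of age. The mice drank water with clozapine at 12 mg/kg/day, water with haloperidol at 1.6 mg/kg/day or water with no drug for 4 weeks, all after 2 weeks of acclimatisation with 1 mouse to a cage. Each group had 3 arrays, each from 1 of its 10 animals and none pooled; how these animals were picked is not given in the sources used here. The labels disagree on the hemisphere (right in the titles, left under tissue), which is therefore not settled. The labelled 4 weeks cannot be the age at sampling either, since acclimatisation and treatment together take longer. The time it refers to was not settled. Clozapine is an atypical antipsychotic that binds many receptors, and haloperidol is a typical one that mainly blocks dopamine D2 receptors. Values below are on the log2 scale, as the authors' GCRMA processing left them, so a difference of 1 is a doubling.

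Oligodendrocytes wrap axons in stacked sheets of their own membrane, which speeds conduction and feeds the axon. Compact myelin is held together on its inner face by basic proteins such as Mbp, and its membrane is rich in galactolipids and cholesterol. The transcription factor Sox10 drives most myelin genes in this lineage. In young mice the forebrain is still adding myelin.

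None of the 8 genes measured above the filter passed limma's test between any of the groups after Benjamini-Hochberg adjustment over the 7453 probe sets tested. Between the drugs, 7 of the 8 lay higher with clozapine than with haloperidol, with a median of 0.13 log2 units, where 56.4% of all tested probe sets lay higher. Without clozapine replicate 1 this was 5 of 8, with a median of 0.04. Among the tested genes only Mog had drug groups that did not overlap, 1 of 13 probe sets beside 17.1% of all tested. The spread within groups was widest for Ugt8a, Mag and 3 of the 4 probe sets of Mobp. These bulk values cannot tell fewer oligodendrocytes from less myelin RNA per cell.

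Promoter windows from RefSeq (GRCm38.p6) were used for 7 of the 9 genes, and 4 are shown because the results turn on their values: Mobp for its disagreeing probe sets, Mag and Ugt8a for their wide spread and Mog for the comparison of the drugs. Each sequence is the 250 bases before the annotated start, 5′ to 3′ on the gene's strand, and capitals mark matches on either strand to any of 5 short motifs. The motifs were ACAAAG and AACAAT, of the kind bound by Sox proteins, CTGGCAC, of the kind bound by the myelin regulator Myrf, CAGCTG, an E-box, and GGGCGG, a GC box of the kind bound by Sp1.
Mobp: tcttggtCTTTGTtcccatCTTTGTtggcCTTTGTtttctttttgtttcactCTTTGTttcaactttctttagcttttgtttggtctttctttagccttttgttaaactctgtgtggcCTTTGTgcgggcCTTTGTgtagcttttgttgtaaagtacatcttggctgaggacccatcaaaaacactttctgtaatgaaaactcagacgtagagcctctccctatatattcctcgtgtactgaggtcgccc
Mag: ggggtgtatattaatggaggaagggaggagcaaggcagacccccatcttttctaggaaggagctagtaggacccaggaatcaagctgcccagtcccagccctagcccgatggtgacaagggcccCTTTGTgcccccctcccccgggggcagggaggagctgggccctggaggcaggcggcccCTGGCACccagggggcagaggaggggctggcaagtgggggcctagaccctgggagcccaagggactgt
Mog: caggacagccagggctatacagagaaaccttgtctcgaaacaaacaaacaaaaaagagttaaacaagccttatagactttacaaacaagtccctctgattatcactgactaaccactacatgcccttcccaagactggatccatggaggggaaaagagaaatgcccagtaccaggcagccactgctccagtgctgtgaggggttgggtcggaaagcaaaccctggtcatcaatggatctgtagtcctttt
Ugt8a: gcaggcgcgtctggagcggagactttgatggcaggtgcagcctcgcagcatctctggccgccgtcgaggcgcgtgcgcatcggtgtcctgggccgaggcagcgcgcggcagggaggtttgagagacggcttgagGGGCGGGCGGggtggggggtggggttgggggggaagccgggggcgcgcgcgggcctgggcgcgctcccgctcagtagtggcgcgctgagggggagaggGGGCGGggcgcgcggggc
The Mobp window is chr9:120149492-120149741 on the plus strand, and the others lie on the minus strand, Mag at chr7:30914864-30915113, Mog at chr17:37023399-37023648 and Ugt8a at chr3:125938653-125938902. Mag has 3 annotated windows, of which 1 is shown, and counts as holding a motif where any of them does. The Mobp window held 6 matches to ACAAAG, all on the opposite strand and between 243 and 120 bases before the start. Of 32851 windows of the same length over all genes, 1 held as many, the Mobp window itself. At least 1 match to ACAAAG stood in 16.5% of all windows and in those of 3 of the 7 genes, Mobp, Mag and Cnp. CTGGCAC stood in 4.19% of all windows and in those of Mag and Cnp. GGGCGG stood in 32.7% of all windows and in those of Ugt8a and Cnp, and 2 of the Ugt8a matches overlap. AACAAT (9.42% of all windows) and CAGCTG (13%) stood in none of the 7 genes' windows. These matches describe the letters only.

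Of the 16 probe sets, 13, covering 8 genes, had an average above 3.448, the 40th percentile of all averages, and were tested. The other 3 were the only probe set of Cnp and second probe sets of Mag and Cldn11. Per-array medians of the deposited values lay between 4.01 and 4.21. Of the neuron markers, Snap25, a synaptic membrane protein, was between 12.82 and 13.26 and Nefm between 7.48 and 8.30. Of the astrocyte markers, Gja1 was between 11.27 and 12.11 and Gfap between 7.21 and 8.16, each in its brighter probe set. These markers of both cell types were thus present, at high and at middle values. The dimmest of the astrocyte list were Slc1a2, at 5.99 to 6.25, and Fgfr3, at 3.80 to 4.90 in its brighter probe set. Haloperidol replicate 3 stood apart with the pituitary hormone gene Gh at 12.57, against 1.07 to 1.28 in the other 8 arrays. Control replicate 3 had the widest gap between the 3' and 5' probe sets of Actb and Gapdh, a measure of RNA integrity, at 1.73 log2 units where the remaining arrays had 0.81 to 1.46. Several differences below are also given without one of these arrays.

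Mbp, the basic protein that zips the inner faces of the myelin membrane together, showed no difference past the threshold in either probe set. The brighter one (96311_at) read 12.78, 12.53 and 12.31 with clozapine, 12.20, 12.46 and 12.45 with haloperidol, and 12.62, 12.45 and 12.45 in controls. The drug groups each reach below the lowest control, and all 3 groups overlap. The difference from the controls was 0.03 ± 0.14 (SE, n = 3 per group) with clozapine, and the 95% interval of the fold was 0.82 to 1.27. With haloperidol it was -0.14 ± 0.14, with a fold interval of 0.73 to 1.13. The second probe set (96310_at) averaged 6.77 ± 0.11 with clozapine, 6.77 ± 0.01 with haloperidol and 6.78 ± 0.16 in controls (SD, n = 3), so its means differed by less than the spread of the controls. Over the 9 arrays the 2 Mbp probe sets ran only loosely together, with 0.171 as Pearson's r and 0.335 as Spearman's rho (exact permutation p = 0.674 and 0.375, adjusted over the 8 such pairs 0.861 and 0.529).

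Mobp, a basic protein of the major dense line of central myelin, gave different answers in its 4 probe sets. The brightest (100536_at) read 10.83, 10.96 and 11.03 with clozapine, 10.68, 10.97 and 10.69 with haloperidol, and 11.07, 11.04 and 10.93 in controls. Of the 3 haloperidol arrays, 2 lie below all controls and the other lies among them. The haloperidol mean lay -0.23 ± 0.11 from the controls (95% interval -0.48 to 0.01, unadjusted p = 0.0593 and adjusted p = 0.536 by limma), and the clozapine mean -0.07 ± 0.11. The other 3 probe sets had drug means above the control mean. 99047_at read 10.60, 10.01 and 9.79 with clozapine, 9.62, 10.02 and 10.27 with haloperidol, and 10.73, 10.24 and 8.40 in controls. Control replicate 3 was thus lower than every other array by over 1 log2 unit. 99048_g_at, listed with the same sequence record as 99047_at, showed the same low array, at 8.19 against 9.20 to 10.27 in the other 8. 99046_at was also lowest there, at 10.06 against 10.56 to 11.24.

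The differences of these 3 Mobp probe sets turned sign without control replicate 3, and other arrays moved them too. Clozapine lay 0.34 ± 0.55 above the controls in 99047_at with control replicate 3 and at -0.35 without it. Haloperidol lay 0.18 ± 0.55 above with it and at -0.52 without it. With other single arrays left out, the clozapine value of 99047_at ranged from 0.11 without clozapine 1 to 0.81 without control 1, and the haloperidol value from 0.03 without haloperidol 3 to 0.65 without control 1. In 99048_g_at clozapine lay 0.31 ± 0.52 and haloperidol 0.23 ± 0.52 above the controls, and without control 3 they lay at -0.32 and -0.39. In 99046_at clozapine lay 0.27 ± 0.26 and haloperidol 0.11 ± 0.26 above the controls, and without control 3 they lay at -0.02 and -0.17. In the brightest probe set the same omission moved the haloperidol value only to -0.27. None of these values passed limma's adjusted threshold.

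**Figure D1:**
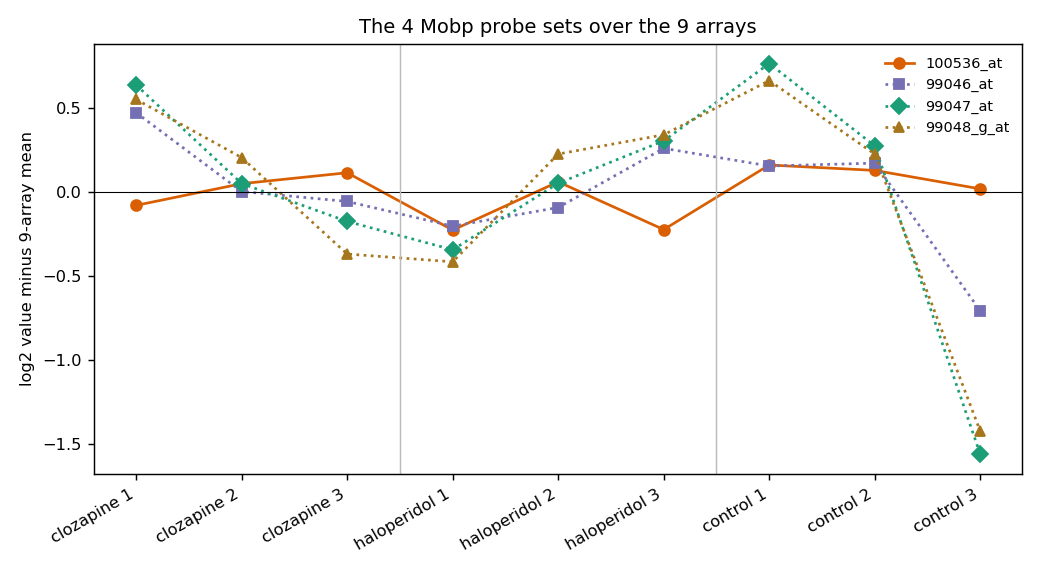
Values of the 4 Mobp probe sets on each of the 9 arrays, as log2 value minus that probe set's mean over the arrays (vertical axis); vertical lines part clozapine, haloperidol and control arrays. The 3 dimmer probe sets (dotted) are lowest in control replicate 3, where 99047_at reads 8.40, whereas the brightest (100536_at, solid) lies 0.02 above its mean there.

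Among the 8 pairs of tested probe sets that share a gene, the 3 dimmer Mobp probe sets followed each other closely over the 9 arrays. For 99047_at and 99048_g_at Pearson's r was 0.982 and Spearman's rho 0.983 (exact permutation p = 8.267e-06 and 4.96e-05, adjusted over 8 pairs 6.614e-05 and 0.000397), and r was 0.93 without the 2 arrays farthest from the median. These 2 probe sets are listed with the same sequence record, so their agreement may be built in. For 99046_at r was 0.94 and rho 0.85 with 99047_at (adjusted exact permutation p = 0.00265 and 0.022), and r was 0.914 and rho 0.783 with 99048_g_at (0.00342 and 0.0344). Without the 2 farthest arrays, clozapine 1 and control 3, these r were 0.799 and 0.738. The brightest probe set followed none of them, with r of -0.0708, 0.0928 and 0.0861 and rho of 0.0833, 0.317 and 0.283 (adjusted exact permutation p = 0.861 for each r, and from 0.529 to 0.843 for rho). The mean of the 3 dimmer sets was lowest in control 3, at 8.88, where the 3' to 5' gap was largest, and next lowest in haloperidol 1, at 9.79, where the gap was 1.30. It was highest in clozapine 1 and control 1, at 10.67 and 10.64, where the gap was 0.89 and 0.88. The other arrays did not all follow this order: control 2, with a gap of 1.46, read 10.34, haloperidol 3, with the smallest gap of 0.81, read 10.41, and haloperidol 2, with 0.87, read 10.18. The part of RNA quality in these values was not tested.

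Mog, a protein of the outermost myelin surface, was the one tested gene whose drug groups did not overlap. It read 8.96, 8.89 and 8.79 with clozapine, 8.45, 8.65 and 8.78 with haloperidol, and 8.66, 8.79 and 8.58 in controls. All 3 clozapine arrays lie above all 3 haloperidol arrays, while the lowest clozapine array and the highest control are level at 8.79. Clozapine exceeded haloperidol by 0.25 ± 0.11 (95% interval 0.00453 to 0.505), a fold of 1.19. The unadjusted p was 0.0468 and the adjusted p 0.915 by limma, and the exact permutation test gave 0.1, the smallest p that 3 arrays against 3 allow. Against the controls, clozapine differed by 0.21 ± 0.11 (unadjusted p = 0.0942, adjusted p = 1) and haloperidol by -0.05 ± 0.11. The difference between the drugs stayed between 0.168 and 0.330 with each array left out in turn.

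Mag, a cell adhesion molecule on the myelin membrane that faces the axon, varied widely among the controls. It read 8.36, 8.54 and 8.08 with clozapine, 7.85, 8.19 and 8.13 with haloperidol, and 8.53, 8.38 and 7.40 in controls. Control replicate 3 was again the lowest of the 9, and the other 2 controls lie above all haloperidol arrays. The clozapine mean lay 0.23 ± 0.28 above the controls with that array and at -0.12 without it. The haloperidol mean lay at -0.05 ± 0.28 with it and at -0.40 without it. Without control replicate 1 the values were 0.44 with clozapine and 0.17 with haloperidol. Clozapine lay 0.27 ± 0.28 above haloperidol (unadjusted p = 0.364 by limma).

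Cldn11 and Mal are membrane proteins with several membrane-spanning segments. Cldn11, which forms the tight junction strands between the turns of myelin, read 9.46, 9.17 and 9.33 with clozapine, 9.65, 9.02 and 9.43 with haloperidol, and 9.17, 8.95 and 9.28 in controls. Both drug means lay above the controls, by 0.19 ± 0.17 with clozapine and 0.23 ± 0.17 with haloperidol, and all 3 groups overlap. Without control 2 these were 0.09 with clozapine and 0.14 with haloperidol. The clozapine value was 0.11 without clozapine 1, and the haloperidol value was 0.09 without haloperidol 1 and 0.41 without haloperidol 2. Mal, a proteolipid of lipid rafts that carries myelin membrane to the cell surface, read 8.40, 8.68 and 8.26 with clozapine, 8.38, 8.57 and 8.38 with haloperidol, and 8.65, 8.35 and 8.41 in controls. It averaged 8.45 ± 0.21 with clozapine, 8.45 ± 0.11 with haloperidol and 8.47 ± 0.16 in controls (SD, n = 3), and the 95% interval of the fold was 0.80 to 1.22 for each drug against the controls. With 1 probe set a gene, Mal had the smallest difference between the drugs, 0.00259 log2 units with an interval of -0.305 to 0.310.

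Ugt8a, the enzyme that makes the galactocerebroside of myelin, had the widest range of the 8 genes, each taken by its brightest probe set, at 1.61 log2 units. It read 6.03, 5.73 and 4.93 with clozapine, 5.16, 5.24 and 5.95 with haloperidol, and 6.07, 4.95 and 4.46 in controls. The groups overlap widely, and each drug group lies inside the range of the controls. Clozapine lay 0.40 ± 0.45 above the controls and haloperidol 0.29 ± 0.45 above, with 95% intervals of -0.64 to 1.43 for clozapine and -0.75 to 1.32 for haloperidol. Without control replicate 3 these were 0.05 for clozapine and -0.06 for haloperidol, and without control replicate 1 they were 0.85 and 0.74. The haloperidol value was 0.04 without haloperidol replicate 3. Its residual standard deviation, 0.629, exceeded that of 96.3% of tested probe sets, and that of Mobp 99047_at, 0.771, that of 98.1%. Over all tested probe sets the median was 0.196, and that of Mog was 0.124.

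Sox10, the transcription factor of the oligodendrocyte lineage, had 2 tested probe sets. The brighter (102856_at) read 6.63, 6.44 and 6.36 with clozapine, 6.46, 6.43 and 6.45 with haloperidol, and 6.88, 6.59 and 6.39 in controls. The haloperidol arrays lie close together (SD 0.0184) and inside the range of the controls. Both drug means lay below the controls, at -0.14 ± 0.13 with clozapine and -0.18 ± 0.13 with haloperidol. Without control replicate 1, the highest of the 9, these were -0.0081 with clozapine and -0.04 with haloperidol, and without control replicate 3 they were -0.26 and -0.29. The second (100283_at) read 6.27, 5.95 and 5.79 with clozapine, 6.11, 5.40 and 5.89 with haloperidol, and 6.27, 5.92 and 5.64 in controls. It lay 0.06 ± 0.23 above the controls with clozapine, the opposite sign of the first, and at -0.14 ± 0.23 with haloperidol. The clozapine value was -0.09 without control 3, and the haloperidol value was 0.02 without control 1 and 0.06 without haloperidol 2. Over the arrays the 2 sets had r of 0.699 and rho of 0.833 (exact permutation p = 0.0344 and 0.00827, adjusted 0.0687 and 0.022), and r was 0.394 without clozapine 1 and control 1, so the relation in r rests on those arrays.

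**Figure D2:**
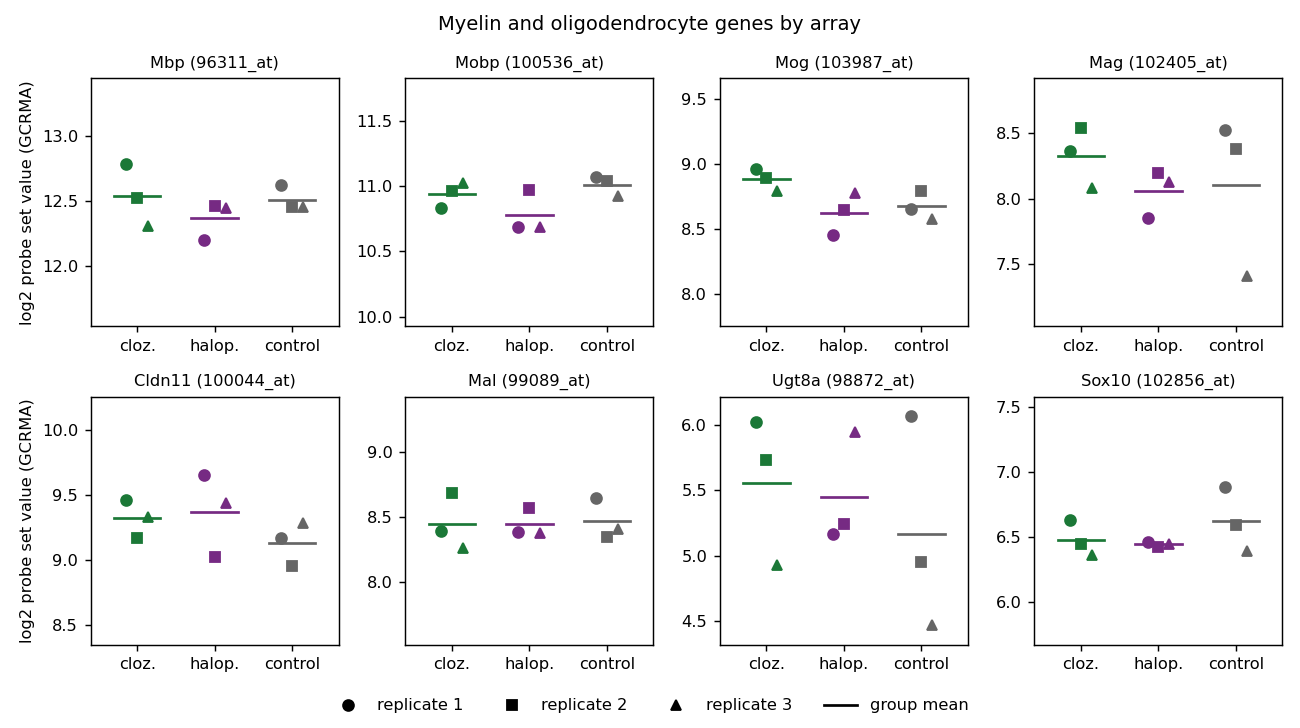
Log2 probe set values (vertical axes, all of equal span) of the 8 tested genes, 1 probe set a gene, on the 3 clozapine, 3 haloperidol and 3 control arrays; symbols give the replicate and lines the group means. Mog is higher in all clozapine than in all haloperidol arrays, and Ugt8a spreads from 4.46 to 6.07.

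Cnp, an enzyme of the non-compact, cytoplasm-filled parts of myelin, had a single probe set, which lay at the low end of the array's values. The second probe sets of Mag and Cldn11 lay there too, although their tested probe sets averaged 8.16 and 9.27. The low value therefore does not show how much Cnp RNA was present. The Cnp probe set read 2.66, 2.80 and 2.65 with clozapine, 2.59, 2.62 and 2.497 with haloperidol, and 2.69, 2.67 and 2.68 in controls. The haloperidol arrays lie below all controls without overlap, as do those of the second probe sets of Mag (161846_r_at, 0.517 to 0.558 with haloperidol against 0.569 to 0.593 in controls) and Cldn11 (161529_r_at, 2.36 to 2.45 with haloperidol against 2.49 to 2.51 in controls). Of the 4969 probe sets at or under the filter, 88.4% had haloperidol arrays below all controls, against 19.4% of those tested. The same 3 probe sets were lowest in haloperidol replicate 3, the array with the lowest median, and highest in clozapine replicate 2, the array with the highest. Clozapine arrays lay above all haloperidol arrays in all 3, as in 83% of probe sets at or under the filter. These shares are near the background of the low probe sets and are no result about the 3.

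**Figure D3:**
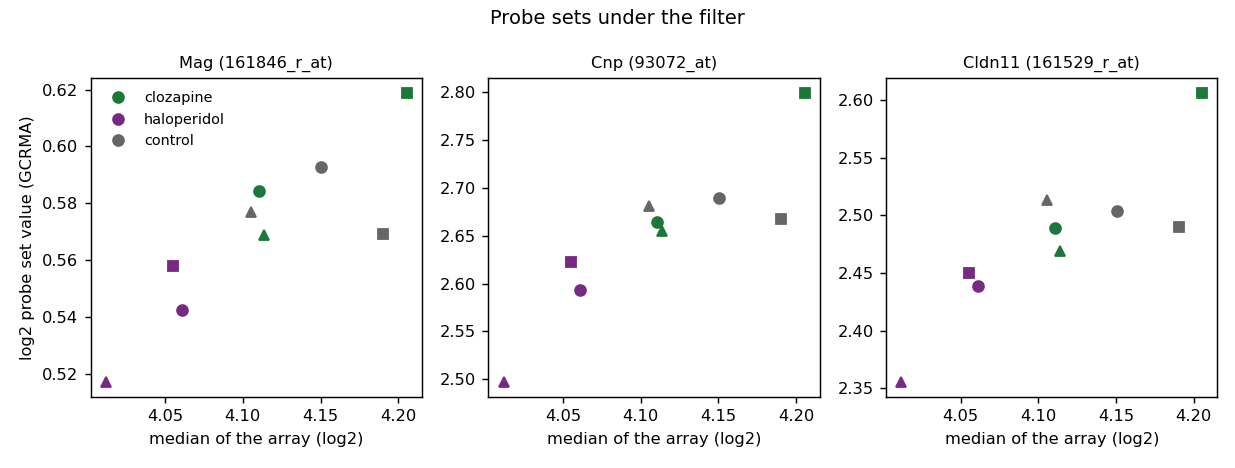
Log2 values (vertical axes) of the 3 probe sets under the filter, for Mag, Cnp and Cldn11, against the median of each array (horizontal axes, log2); colours give the group and symbols the replicate, as in the plot of values by array. Haloperidol replicate 3 is lowest and clozapine replicate 2 highest on both axes.

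The question of each comparison was whether a drug given for 4 weeks changed these genes. For clozapine against control, limma called 0 of the 13 probe sets at an adjusted p of 0.05, as it called 0% of all those tested, and 0 of the 13 had an unadjusted p under 0.05, against 0.939% of all. No member had clozapine arrays clear of the controls, as 3.43% of all tested probe sets did. With 1 probe set a gene, 5 of 8 genes lay above the controls and 3 below (49.5% of all tested probe sets lay above), with a median of 0.11 beside a median of -0.00125 over all tested probe sets. Centring the arrays on their medians gave 4 above and 4 below. Without control replicate 3, which holds the lowest Mag and Ugt8a values, 4 lay above and 4 below and the median was -0.02. The 3 above most were Ugt8a, Mag and Mog, and the 3 below were Sox10, Mobp and Mal, each by its brightest probe set. The other probe sets of Mobp lay above, at 0.27, 0.34 and 0.31, as did the second of Sox10, at 0.06. The second of Mbp lay below, at -0.01, where its brighter one lay above. The signs of these genes thus depend on the probe set.

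For haloperidol against control, limma also called 0 of 13 (0% of all tested), and 0 of 13 had an unadjusted p under 0.05, against 9.12% of all. None was clear of the controls, as 21.7% of all tested probe sets were. Of the 8 genes, 2 lay above, Ugt8a and Cldn11, and 6 below, beside 46.4% and 53.6% of all tested probe sets, with a median of -0.05 beside -0.02 over all. Mobp is among the 6 by its brightest probe set, and its other probe sets lay above, at 0.115, 0.18 and 0.23. The second probe sets of Mbp and Sox10 lay below, as their brighter ones did. Without haloperidol 1 the count turned to 5 above and 3 below, with a median of 0.02. Without control 1 or control 2 it was 4 and 4, with medians of 0.01 and -0.04. Without control 3 it was 1 and 7, with a median of -0.13, and without both control 3 and haloperidol 3 it was 1 and 7, with a median of -0.22. The median was -0.10 without haloperidol 2 or haloperidol 3. Both drugs were set against the same 3 control arrays, so their differences share that error.

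For clozapine against haloperidol, limma called 0 of 13 (0% of all tested), and 1 of 13, Mog, had an unadjusted p under 0.05, against 3.64% of all. Mog alone was clear between the groups, 7.69% of the 13 beside 17.1% of all tested, or 15.2% counting those above as Mog is. Of the 8 genes, 7 lay higher with clozapine, where 56.4% of all tested probe sets did, and the median was 0.13 beside 0.03 over all. By size these were Mag at 0.27, Mog at 0.25, Mbp at 0.17, Mobp at 0.16, Ugt8a at 0.11, Sox10 at 0.03 and Mal at 0.00259, and Cldn11 lay at -0.05. Without clozapine replicate 1, which had the highest Mbp and Mog, 5 of 8 lay higher and the median was 0.04. The doses of the drugs differ, at 12 and 1.6 mg/kg/day, so the drugs were not compared at matched doses. A moderated F test over the 3 groups called 0 of 13 (0% of all), and 0 of 13 had an unadjusted p under 0.05, against 3.37% of all, with unadjusted p from 0.1 for Mog to 0.994 for Mbp 96310_at.

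**Figure D4:**
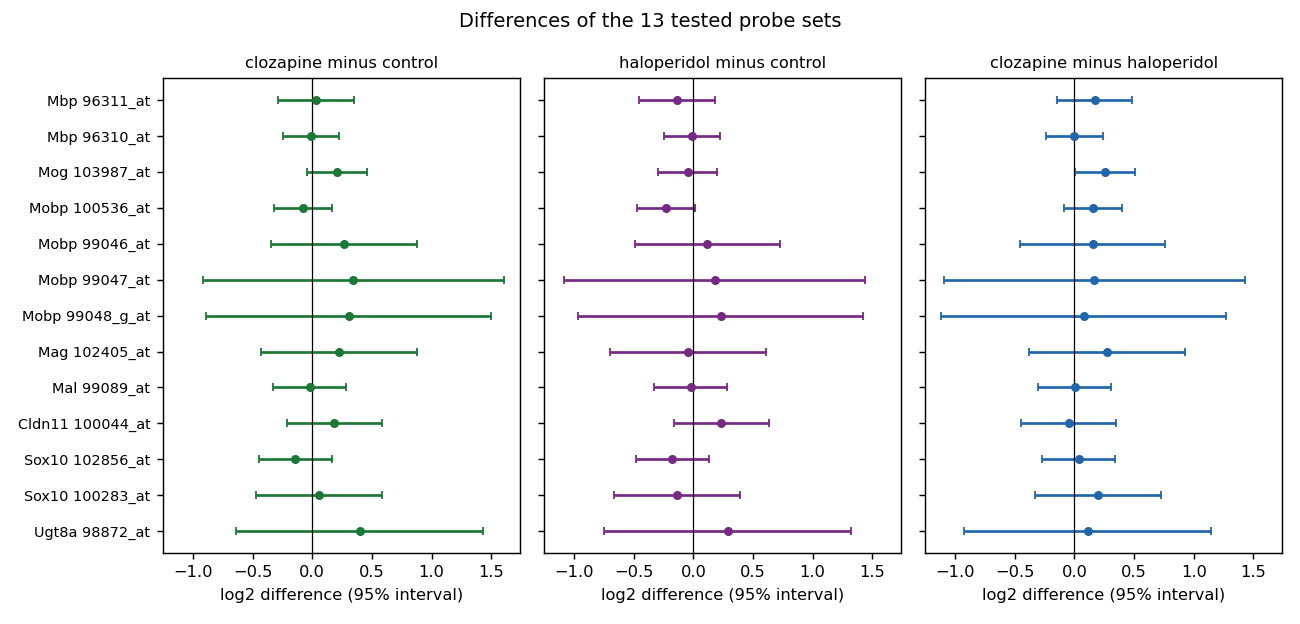
Differences of the 13 tested probe sets with 95% intervals from limma (horizontal axes, log2 units) in 3 panels, each drug less the controls and then clozapine less haloperidol, with n = 3 arrays per group. Only the interval of Mog in the last panel leaves out 0, and those of Mobp 99047_at reach from -1.10 to 1.61 over the panels.

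Over the 9 arrays most pairs of the 8 genes had a correlation above 0. Among 28 pairs of genes Pearson's r had a median of 0.326 and was above 0 in 21. Over all pairs of the 5650 genes tested the median was 0.003, with quartiles of -0.336 and 0.362, and 50.2% were above 0. The median of the 28 lay between those quartiles, which describe single pairs. They therefore do not show how unusual a median over 28 pairs is. With control 3 left out the median over the 28 pairs was 0.336. The closest pair was Mag and Ugt8a, with r of 0.722 and rho of 0.633 (exact permutation p = 0.0222 and 0.076, adjusted 0.311 and 0.304), and r was 0.475 without the 2 arrays farthest from the median and 0.498 without control 3. Cldn11 ran against the others, with r below 0 for 6 of its 7 pairs. Its r with Mobp was -0.81 and rho -0.82 (exact permutation p = 0.0083 and 0.0108, adjusted 0.232 and 0.301), and r was -0.62 without the 2 arrays farthest from the median. Mobp stands here by its brightest probe set (100536_at), which followed none of its other probe sets. The r of Cldn11 with those others was not computed, so this value holds for 100536_at only. No pair passed when adjusted over the 28.

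**Figure D5:**
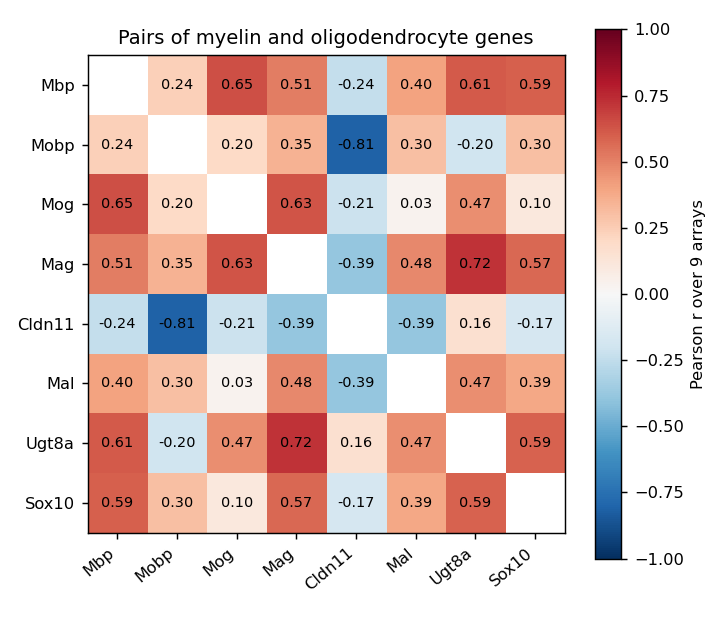
Pearson's r over the 9 arrays for each pair of the 8 tested genes, 1 probe set a gene (red above 0, blue below). Mag and Ugt8a have the highest r, 0.72, and Cldn11 and Mobp the lowest, -0.81, with Mobp in its brightest probe set (100536_at) only.

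By array, the mean deviation of the 8 genes from their 9-array means was highest in control 1, at 0.22, and clozapine 1, at 0.19, and lowest in control 3, at -0.25. The group means were 0.07 ± 0.16 with clozapine, -0.05 ± 0.09 with haloperidol and -0.03 ± 0.23 in controls (SD, n = 3), so the controls held both the highest and the lowest array. Neuron markers, with 8 of 10 listed tested, had mean deviations of -0.16 to 0.15 with clozapine, -0.15 to 0.21 with haloperidol and -0.39 to 0.14 in controls. Their mean was lowest in control 3 as for the myelin genes but highest in haloperidol 3. Syt1 weighs most in the control 3 value, at 8.57 there against 9.68 to 11.315 in the remaining arrays. Microglia markers, with 7 of 10 tested, had -0.11 to 0.13 with clozapine, -0.08 to 0.10 with haloperidol and -0.22 to 0.16 in controls, lowest in control 3 and highest in control 1. Astrocyte markers, with 8 of 10 tested, had -0.02 to 0.04 with clozapine, -0.21 to 0.19 with haloperidol and -0.16 to 0.28 in controls, and were highest in control 3. Of 6 Schwann cell markers, 2 were tested, Egr2 and Sox2, which other cells express too. The part of these cell types in the values of the myelin genes was not tested.

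The genes whose values followed the mean profile of the 8 most closely over the 9 arrays, among 5642 other genes, were Ppp1r3c, Pld3, Mmp17, Fkbp8, Uqcrc1, Necap1, Fcho1 and Cdk5rap3, with r from 0.973 to 0.945 and rho from 0.95 to 1. The least alike were Set, Tbc1d23 and Chd1, with r from -0.943 to -0.955. These are the extremes of many genes and carry no test, and Ugt8a and Mag, with the widest spread, weigh most in the profile. Of the other genes of mature oligodendrocytes in a wider list, 9 of 17 had r above 0, with a median of 0.00129, and none was among the 8 closest. Over all 5642 genes 3198 had r above 0, with a median of 0.074. The median r was 0.39 for neuron markers, 0.33 for genes that make myelin lipids and 0.30 for microglia markers. It was -0.09 for genes of oligodendrocyte precursors and -0.26 for astrocyte markers.

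That wider list gave 19 of its 37 genes on the array and 17 tested, and 0 passed limma's adjusted threshold in any comparison (0 in each direction). With clozapine 4 lay above and 13 below the controls, with a median of -0.03 beside -0.00125 over all tested probe sets. Apod, a lipid carrier, lay highest at 0.09 ± 0.20, and at -0.08 without clozapine 1. Lpar1, a lysophosphatidic acid receptor, lay lowest at -0.23 ± 0.17, and at -0.15 without control 3. With haloperidol 9 lay above and 8 below, with a median of 0.00115, Apod again highest at 0.28 ± 0.20 and the tetraspanin Cd9 lowest at -0.33 ± 0.17, and at -0.16 without control 3. Apod with haloperidol ranged from 0.15 without haloperidol 2 to 0.47 without haloperidol 1. Between the drugs 8 were higher and 9 lower with clozapine, with a median of -0.06, beside the 7 higher and 1 lower of the 8 genes.

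Genes that make myelin lipids and genes of oligodendrocyte precursors also had 0 members past the adjusted threshold in any comparison. Of 13 lipid genes tested, 8 lay above the controls with clozapine and 9 with haloperidol, with medians of 0.06 and 0.08. Relative to the controls, Dhcr7, of cholesterol synthesis, lay at 0.39 ± 0.40 with clozapine and 0.34 ± 0.40 with haloperidol, and Sptlc1, of the first step of sphingolipid synthesis, at 0.24 ± 0.41 with clozapine and 0.48 ± 0.41 with haloperidol. Control 3 was the lowest of the 9 arrays for both, and without it Dhcr7 lay at 0.06 with clozapine and 0.01 with haloperidol, and Sptlc1 at -0.10 and 0.14. Dhcr7 with haloperidol lay at 0.04 without haloperidol 3. Cers2, which makes very long ceramides, lay lowest, at -0.10 ± 0.11 with clozapine and -0.20 ± 0.11 with haloperidol, and without control 3 at -0.02 and -0.12. Of 10 precursor genes tested, 6 lay above with clozapine and 4 with haloperidol, with medians of 0.01 and -0.02. The brevican gene Bcan lay at 0.34 ± 0.46 with clozapine and 0.27 ± 0.46 with haloperidol in its brighter probe set, where control 3 read 6.31 and the other arrays 7.63 to 8.38, and without that array it lay at -0.27 with clozapine and -0.34 with haloperidol. Its second probe set lay at -0.23 ± 0.09 with clozapine and -0.24 ± 0.09 with haloperidol. The 2 probe sets thus differed in sign with all arrays and had the same sign without control 3. With single arrays left out, the second ranged from -0.26 to -0.16 with clozapine and from -0.29 to -0.19 with haloperidol. The versican gene Vcan lay at -0.16 ± 0.23 with clozapine and -0.19 ± 0.23 with haloperidol (all ± values are SE, n = 3 per group). Control 3 was its highest array, and without it Vcan lay at 0.11 with clozapine and 0.07 with haloperidol. Leaving out arrays for the genes of these wider lists was chosen after seeing the data.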

How the data were processed

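The deposited table holds log2 values per probe set. The authors made them with GCRMA, as the submitters' processing notes state. That method corrects background from probe sequence, normalises between arrays and summarises probes; its version was not stated. Of 12488 probe sets, 66 controls were left out. Platform symbols were brought up to date by Entrez identifier (RefSeq GRCm38.p6). The 7453 probe sets with an average above the 40th percentile (3.448) were tested. limma 3.58.1 in R 4.3.3 fitted 1 mean per treatment to 9 arrays (lmFit, eBayes), with Benjamini-Hochberg adjustment over all tested probe sets at 0.05. A gene was represented by its probe set of highest average. All 9 genes are named, from each wider list up to 2 genes a side, and the 8 most and 3 least like genes. Members and lists were chosen with earlier results of these data known. The fit was tested on simulated data. The number of arrays limits the precision. Groups share replicate numbers. Same-numbered arrays did not deviate together as a rule, with r from -0.597 to 0.697 and a median of -0.227 in 9 pairs. They were therefore not paired. Some same-numbered pairs did deviate together, such as clozapine 1 with control 1 at 0.697 and clozapine 2 with haloperidol 2 at 0.692. Differently numbered arrays of different groups had r from -0.660 to 0.661 in 18 pairs, with a median of 0.036. The highest was clozapine 1 with haloperidol 3, and haloperidol 3 also went with control 1, at 0.638. Clozapine 1, control 1 and haloperidol 3 thus deviated together across the groups. Clozapine 3 went with haloperidol 1, at 0.651. The fit, the correlations over arrays and their permutation tests take no account of such links.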

Additional observations from a re-analysis of the deposited data

How the results depend on the processing

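In limma, 0 probe sets in the whole table and 0 of these genes' probe sets passed in any comparison under any alternative run: no filter, a filter at the 60th percentile, a floor, array centring, quantile normalization, a trended robust prior, array weights, only the 6 arrays compared, a threshold of 0.10, probe sets with special suffixes left out, each array left out in turn, and 2 arrays left out together. At an unadjusted p under 0.05 the counts among the 13 were 0, 0 and 1 in the settings of the report. With the replicate block the count at an adjusted p of 0.05 was 0 for each comparison, and the medians were 0.11, -0.05 and 0.13. The block is balanced over the groups, so it could not change these medians. The median over the 8 genes ranged from -0.02 to 0.16 for clozapine against control with each array left out in turn, from -0.13 to 0.02 for haloperidol against control and from 0.04 to 0.20 for clozapine against haloperidol. For haloperidol against control it was -0.22 without both control 3 and haloperidol 3, a move larger than the spread between arrays (SD 0.136); the cause was not tested. With no filter, which brings in Cnp, the median for clozapine against control was 0.03, and with the mean of a gene's probe sets it was 0.20. Of 777 alternative values for the 39 single differences, 6 moved by more than the replicate spread. Among them were Mobp 99047_at with haloperidol, at -0.66 without those 2 arrays, and Mbp 96310_at, at 0.14 with array weights. Many of the 777 could not move. The filters, the trended prior, the 6-array fit, the replicate block and the omission of special suffixes leave group means unchanged. So does leaving out an array of the group not compared. The 6 of 777 therefore does not measure how stable the differences are.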
